A study of Homo sapiens with 9 samples.

Results

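The BCL2 family of apoptosis regulators was followed in PANC-1 cells, an epithelial line from a human pancreatic carcinoma, after transfection of a miR-520f mimic. The genes were BAK1, BAX, BCL2, BCL2L1, MCL1, BID, BIK, BBC3, PMAIP1 and BCL2L11, and each was read from the probe set that carries its symbol alone. This gave 9 of the 10 genes among 14232 genes tested. The probe set of MCL1, a guardian, also carries other symbols, so MCL1 has no value here. Of the 9 arrays, 3 came from cells given 20 nM miR-520f mimic (labelled miR520), 3 from cells given 20 nM negative control mimic (NC) and 3 from cells given only the lipid reagent that carries the mimics (NT, labelled non-transfected). The labels give the same growth medium for all cells, name no genetic change and place RNA extraction at 72 h. Replicates are described as biological in the labels, with no word on whether cultures were separate, and the p-values below therefore reflect array-to-array spread that may be partly technical. A mimic is a synthetic RNA that raises a microRNA far above its own level, and the whole study rests on this single cell line. The study sought genes that the mimic changed against both controls. Each array read a whole culture, so a change in all cells and a larger change in some of them cannot be told apart.

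BCL2 family proteins decide whether the outer membrane of the mitochondrion stays intact. The effectors BAK1 and BAX form pores that release cytochrome c, the guardians BCL2, BCL2L1 (BCL-xL) and MCL1 hold them in check, and the BH3-only proteins BID, BIK, BBC3 (PUMA), PMAIP1 (NOXA) and BCL2L11 (BIM) neutralise guardians or activate effectors. Carcinoma cells commonly depend on BCL-xL or MCL1 for survival. The arrays measured RNA, whereas much of the control of this family acts on protein stability, cleavage and binding.

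The agent is shown first because its seed, the stretch of bases 2 to 8 that pairs with target RNAs, defines which RNAs a microRNA can recognise. The labels name miR-520f without an arm, so both mature arms are given, with the seed in capitals. They are read from RefSeq (build GRCh38.p14) at chr19:53682213-53682234 for the 3p arm and chr19:53682173-53682194 for the 5p arm, both on the plus strand.
miR-520f-3p: aAGUGCUUccuuuuagaggguu
miR-520f-5p: cCUCUAAAgggaagcgcuuucu
miR-520c-3p: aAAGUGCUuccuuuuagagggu
miR-373-3p: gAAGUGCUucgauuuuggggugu
Among 2370 mature human microRNAs in that table, 1 had the seed of miR-520f-3p, namely miR-520f-3p itself. Bases 1 to 7 of miR-520f-3p spell AAGUGCU, the seed of 12 others of the miR-302, miR-372, miR-373 and miR-520 group, of which miR-520c-3p and miR-373-3p are printed to show the shift by 1 base. Target sites in the family's transcripts were not analysed here.

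The values are log2 intensities after robust multi-array averaging (RMA), which brings arrays to a common distribution, and array medians over all probe sets lay between 4.22 and 4.34. The keratins KRT8 (11.3 to 11.8) and KRT18 (8.66 to 9.35) and vimentin, VIM (11.8 to 12.2), a known mesenchymal trait of this line, gave bright signals on every array, while KRT7 was dim (3.43 to 3.56). Other epithelial markers moved on the same arrays as BAK1 and BCL2L1, without overlap: EPCAM read 7.56 to 7.83 on the control arrays and 9.16 to 9.56 with miR-520f, CDH1 5.39 to 5.59 and 6.56 to 6.67, and KRT19 8.76 to 9.11 and 8.11 to 8.24. KRT18 (8.66 to 8.99 and 9.02 to 9.35) and VIM (12.02 to 12.21 and 11.83 to 11.93) also did not overlap, by smaller margins. The part of these markers in the family's values was not tested. The measured leukocyte, endothelial, acinar and islet markers (PTPRC, CD3E, PECAM1, CDH5, CPA1 and GCG) and DCN ranged from 2.86 to 4.04, below every array median, and the fibroblast gene COL1A1 read 7.06 to 8.23. Replicate 1 of the negative control deviated most from its group mean over all genes, by a root mean square of 0.169 log2 units against 0.0698 to 0.131 on the other arrays. BCL2L1 and PMAIP1 are also given without this array. Its omission also ended the call of BCL2L11 between the controls (0.21, limma adjusted p = 0.103). The sign of BIK then turned against the negative control (0.01) and between the controls (-0.02), without a call.

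BAK1 rose with miR-520f by 2.597-fold against lipid alone and 2.654-fold against the negative control, the largest change in the family. BCL2L1 fell by 1.92-fold and 1.53-fold in the same order. BAX rose by 1.33-fold against the negative control, and its comparison with lipid alone missed the threshold. No BH3-only gene among the listed family genes passed against lipid alone or the negative control, beside 27.6% and 28.1% of all genes tested. BMF, a BH3-only gene of the wider list given below, passed against lipid alone. Calls were made in limma, a linear model fitted over all genes, where p after Benjamini-Hochberg adjustment was under 0.05.

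**Figure D1:**
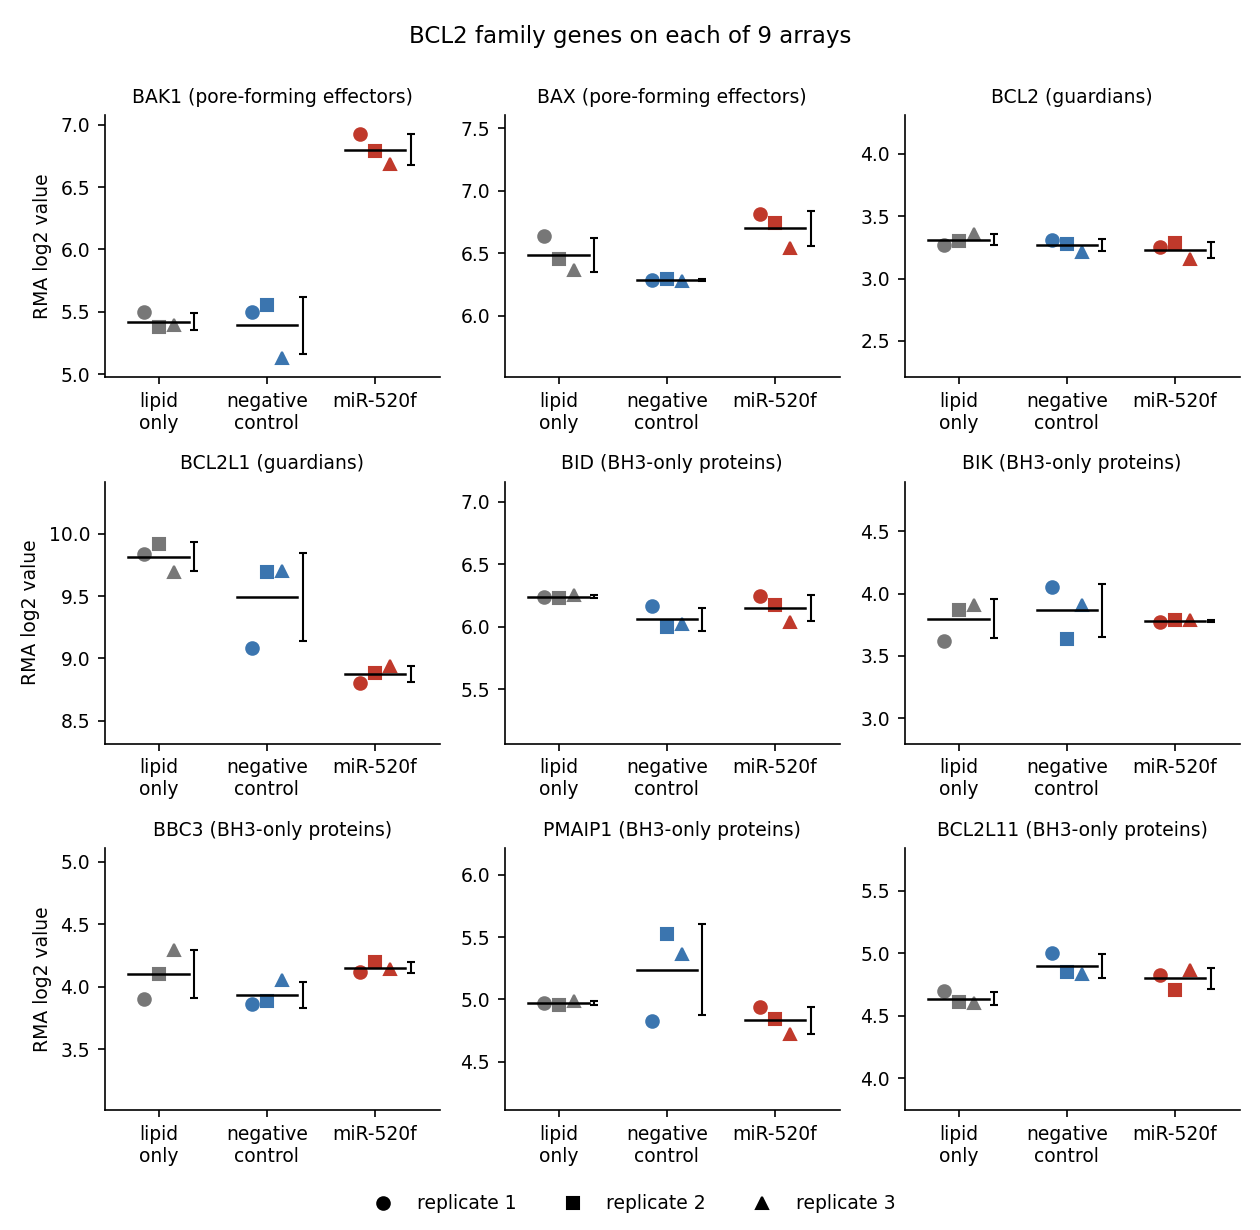
RMA log2 values of the 9 measured BCL2 family genes on each array, by group (lipid alone, negative control mimic, miR-520f mimic); symbols mark the replicates, lines the group means and bars 1 SD (n = 3). BAK1 sits between 6.68 and 6.93 with miR-520f and at or below 5.55 on all control arrays, and BCL2L1 is lowest with miR-520f (8.80 to 8.94). Each panel has its own range of log2 values, and all panels span about the same number of log2 units.

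BAK1 (probe set 2950753), the effector that resides in the outer mitochondrial membrane, read 5.50, 5.38 and 5.39 on replicates 1 to 3 of lipid alone. It read 5.50, 5.55 and 5.13 with the negative control and 6.93, 6.79 and 6.68 with miR-520f. All 3 miR-520f arrays lay above all 6 control arrays, and the control groups overlapped. Group means were 5.42 ± 0.07, 5.39 ± 0.23 and 6.80 ± 0.12 (log2 values, SD, n = 3 each). The log2 fold changes of miR-520f were 1.38 against lipid alone (SE 0.11, limma adjusted p = 6.49e-06) and 1.41 against the negative control (SE 0.11, limma adjusted p = 5e-06). Over all genes tested, 1.19% and 1.13% had a larger absolute log2 fold change in these comparisons. Between the controls BAK1 differed by -0.03 (95% confidence interval -0.28 to 0.22), a sign that turned after further quantile normalization (0.00918) and on leaving out single arrays.

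BAX (probe set 3838067), the effector that moves from the cytosol to mitochondria, read 6.63, 6.46 and 6.36 with lipid alone. It read 6.29, 6.29 and 6.28 with the negative control and 6.81, 6.74 and 6.54 with miR-520f. The miR-520f arrays all exceeded the negative control arrays and overlapped those of lipid alone, where replicate 1 was above the lowest miR-520f array. BAX rose against the negative control by 0.41 (SE 0.09, limma adjusted p = 0.00533). Against lipid alone the log2 fold change was 0.21 (95% confidence interval 0.01 to 0.41, limma adjusted p = 0.120), which was not called. It was called after median centring (0.28), without replicate 1 of lipid alone (0.29) and without replicate 3 of miR-520f (0.29); over all alternatives the adjusted p ran from 0.041 to 0.391. The difference between the comparisons is the difference between the controls, -0.20 for negative control minus lipid alone (95% confidence interval -0.40 to 0.0019, limma adjusted p = 0.198), so BAX was not shown to respond differently against them.

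BCL2L1 (probe set 3902489), which encodes BCL-xL and, by alternative splicing, the shorter pro-apoptotic BCL-xS, read 9.83, 9.92 and 9.69 with lipid alone. It read 9.08, 9.69 and 9.70 with the negative control and 8.80, 8.89 and 8.94 with miR-520f. Every miR-520f array was below every control array, and replicate 1 of the negative control lay far nearer to the miR-520f arrays than its companions did. One value per gene does not separate the splice forms. The means were 9.82 ± 0.11, 9.49 ± 0.35 and 8.88 ± 0.07 (log2 values, SD, n = 3 each). BCL2L1 fell by 0.94 on the log2 scale against lipid alone (SE 0.14, limma adjusted p = 0.000553) and by 0.61 against the negative control (SE 0.14, limma adjusted p = 0.00773). Without replicate 1 of the negative control the latter was -0.82 (limma adjusted p = 4.85e-05). With each gene's own variance in place of the moderated one, as in the kind of test the study's design names, the adjusted p was 0.0578 and the call ended; over all alternatives the adjusted p ran from 4.85e-05 to 0.0578.

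BCL2 itself (probe set 3811339), the founding guardian, read 3.27, 3.304 and 3.36 with lipid alone, 3.31, 3.28 and 3.21 with the negative control and 3.25, 3.28 and 3.16 with miR-520f. It was below the array's median on all 9 arrays, and the groups overlapped. Its log2 fold changes were -0.08 against lipid alone (95% confidence interval -0.23 to 0.07) and -0.04 against the negative control (95% confidence interval -0.19 to 0.11), and the sign of the latter turned after further quantile normalization (0.02) and median centring (0.00282). RMA compresses differences of dim probe sets, so these intervals hold for the array's scale and not for transcript abundance. BIK and BBC3 were also below the median on all 9 arrays, and the same limit applies to them.

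Of the 5 BH3-only genes listed in the family, 0 were called in limma for miR-520f against lipid alone and 0 against the negative control. Of all genes tested 27.6% and 28.1% were called, and with 5 genes the count is no result about the group. PMAIP1 (probe set 3790704), whose protein binds chiefly MCL1, came nearest. It read 4.97, 4.95 and 4.99 with lipid alone, 4.83, 5.52 and 5.37 with the negative control and 4.94, 4.84 and 4.72 with miR-520f. The miR-520f arrays lay just below those of lipid alone, by a mean of 0.14, whereas the negative control split into a low replicate 1 and a high pair. Against the negative control the log2 fold change was -0.40 (95% confidence interval -0.73 to -0.08, limma adjusted p = 0.0624). Without replicate 1 of the negative control it was -0.61 (limma adjusted p = 0.000347), and the difference of the negative control from lipid alone was then 0.47 (limma adjusted p = 0.00433) in place of 0.27 (limma adjusted p = 0.299). The value against the negative control was also called without the dimmest 25% of genes (adjusted p = 0.0406) and with trended, robust moderation (adjusted p = 0.0445), and its adjusted p over all alternatives ran from 0.000347 to 0.218. Replicate 1 was the array that deviated most from its group over all genes, and its part in PMAIP1 beyond these values was not tested.

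BCL2L11 (probe set 2500275), whose product BIM can bind every main guardian, read 4.70, 4.61 and 4.598 with lipid alone. It read 5.005, 4.85 and 4.83 with the negative control and 4.83, 4.71 and 4.87 with miR-520f. Both mimic groups stood above all arrays of lipid alone and overlapped each other. The log2 fold change was 0.17 for miR-520f against lipid alone (95% confidence interval -0.0042 to 0.33, limma adjusted p = 0.156) and -0.10 against the negative control (95% confidence interval -0.27 to 0.07). BCL2L11 was the only family gene called between the controls, 0.26 higher with the negative control mimic than with lipid alone (SE 0.08, limma adjusted p = 0.0421). That call was lost under 12 of 19 alternatives, among them the omission of any 1 of 7 arrays (replicates 1 to 3 of lipid alone, 1 and 2 of the negative control, 1 and 3 of miR-520f), where the log2 fold change was 0.21 to 0.29 and the adjusted p 0.0503 to 0.143.

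BID (probe set 3951927), which caspase-8 cleaves into an active fragment, read 6.24, 6.23 and 6.26 with lipid alone, 6.16, 5.997 and 6.02 with the negative control and 6.24, 6.17 and 6.04 with miR-520f. The miR-520f arrays overlapped both control groups, with log2 fold changes of -0.09 (95% confidence interval -0.26 to 0.08) and 0.09 (95% confidence interval -0.08 to 0.26). BBC3 (probe set 3866435), a classical p53 target, read 3.91, 4.10 and 4.29 with lipid alone, 3.86, 3.89 and 4.05 with the negative control and 4.12, 4.20 and 4.14 with miR-520f. Its miR-520f arrays were above those of the negative control (log2 fold change 0.22, 95% confidence interval 0.00093 to 0.44, limma adjusted p = 0.136) and within the range of lipid alone (0.05, 95% confidence interval -0.16 to 0.27; -0.04 without replicate 1 of lipid alone). BIK (probe set 3947604), a BH3-only protein of the endoplasmic reticulum, read 3.62, 3.87 and 3.91 with lipid alone, 4.05, 3.64 and 3.91 with the negative control and 3.77, 3.78 and 3.79 with miR-520f. The 3 miR-520f values were nearly equal (SD 0.0087) and lay inside the range of both controls, with log2 fold changes of -0.01 (95% confidence interval -0.26 to 0.23; 0.05 after further quantile normalization or median centring) and -0.08 (95% confidence interval -0.33 to 0.16; 0.01 without replicate 1 of the negative control).

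**Figure D2:**
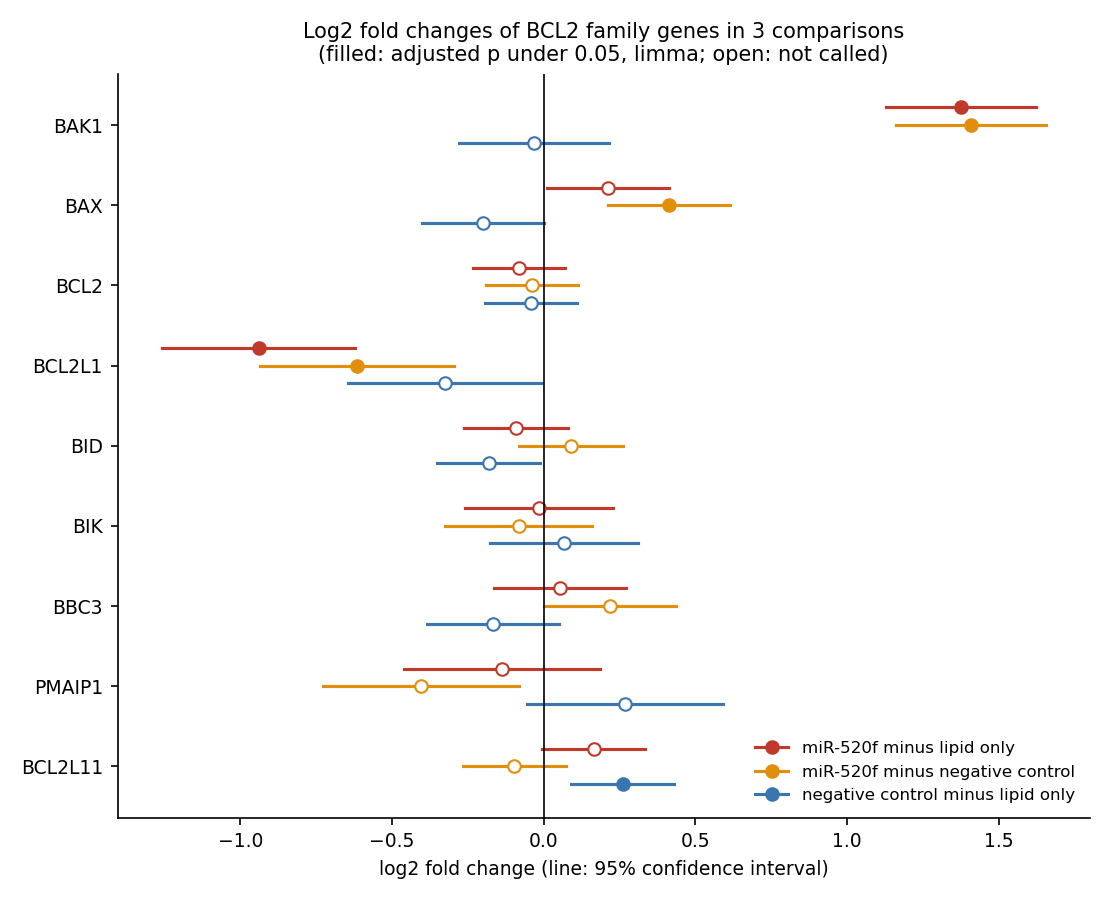
Log2 fold changes of the 9 genes (points) with 95% confidence intervals (lines) for miR-520f minus lipid alone, miR-520f minus negative control and negative control minus lipid alone; filled points passed an adjusted p under 0.05 in limma. BAK1 stands at 1.38 and 1.41 and BCL2L1 at -0.94 and -0.61, while BCL2, BID and BIK lie near 0 in all 3 comparisons, the farthest being BID between the controls (-0.18).

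As a group, 2 of the 9 genes were called against lipid alone (1 higher, 1 lower), beside 27.6% of all genes tested, and 3 against the negative control (2 higher, 1 lower), beside 28.1%. Both comparisons use the same miR-520f arrays. By the study's criterion of a change against both controls with equal sign, BAK1 rose and BCL2L1 fell, 2 of 9 genes beside 18% of all genes (9.37% higher and 8.61% lower). These shares of the family, 22.2%, 33.3% and 22.2%, are near the background, so the counts are no result about the family. The median log2 fold change over the 9 genes was -0.01 against lipid alone and -0.04 against the negative control, and over all genes it was -0.03 and -0.03. Between the controls 1 of 9 genes was called higher with the negative control and 0 lower, beside 15.3% of all genes (7% higher and 8.28% lower), and arrays did not overlap for 3 genes, beside 27%. Arrays of miR-520f and lipid alone did not overlap for 4 genes (41.1% of all genes), and those of miR-520f and the negative control for 4 (39.4%).

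**Figure D3:**
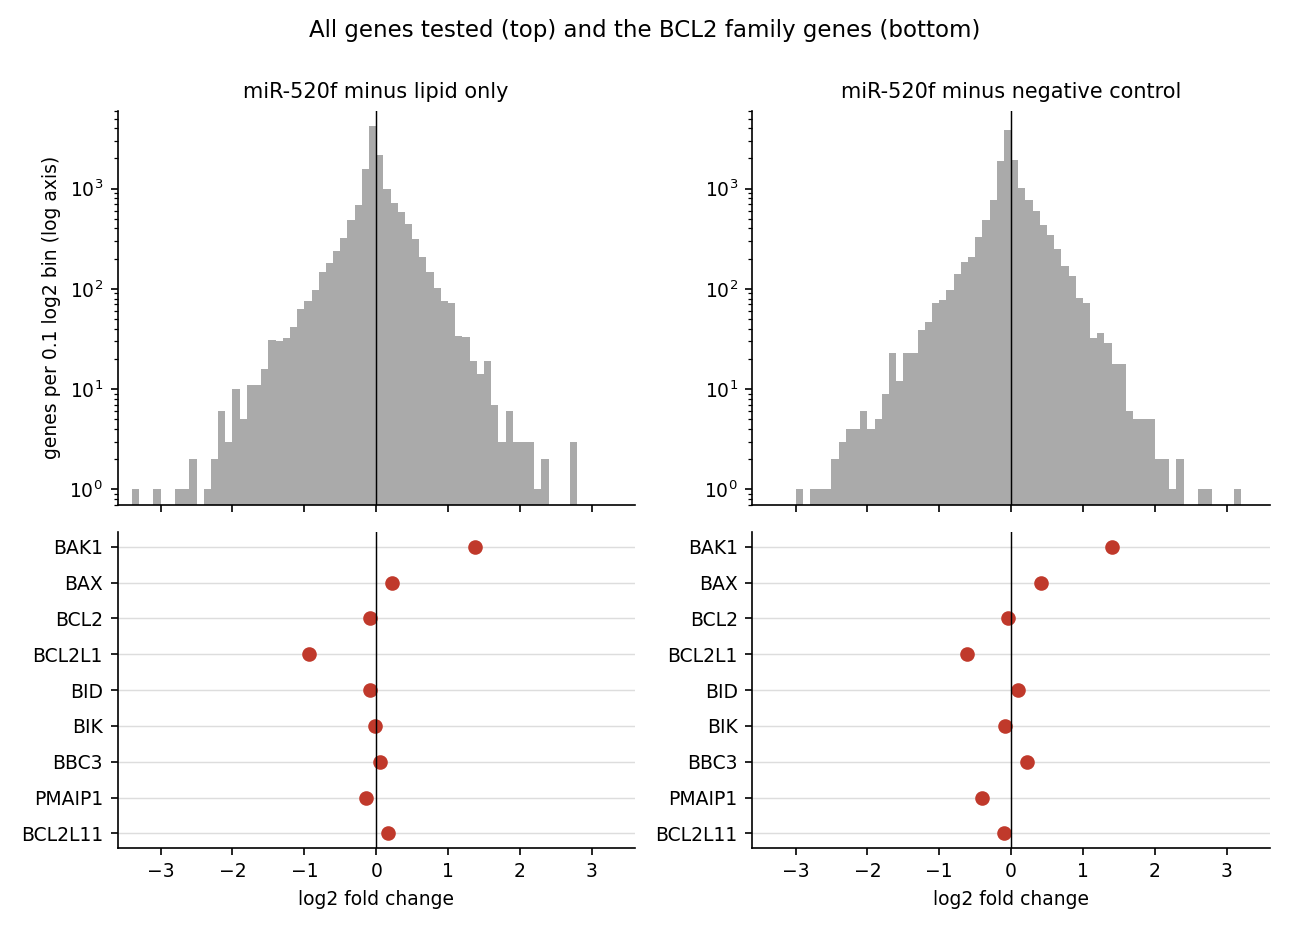
Histograms of the log2 fold changes of 14232 genes (top, number of genes on a log axis) above the positions of the 9 BCL2 family genes (bottom), for miR-520f against lipid alone (left) and against the negative control (right). BAK1 lies in the right tail in both panels, BCL2L1 on the left flank, and most of the others near the centre of the distribution.

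The genes whose levels followed those of the 3 family genes with the largest changes of equal sign were found by the root mean square difference of mean-centred log2 values over the 9 arrays, which share their 3 groups. POMK, a kinase of protein-bound sugar chains (0.127), the Polycomb factor MTF2 (0.135) and the neuropeptide gene NTS (0.14) were nearest to BAK1, with log2 fold changes of 1.22, 1.57 and 1.30 against lipid alone. PRKCA, protein kinase C alpha (0.067), the cilium gene TTC8 (0.075) and the arginyltransferase ATE1 (0.08) were nearest to BCL2L1 and had log2 fold changes of -1.07, -1.06 and -0.77 against lipid alone. TPCN2 (0.045), INCA1 (0.0582) and ANKEF1 (0.0646) were nearest to BAX.

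The pathway around the family was read from 44 further genes, of which 31 were measured and the rest were not analysed here. Against lipid alone 9 rose and 2 fell, beside 14.5% and 13.1% of all genes, and against the negative control 7 rose and 3 fell, beside 15.4% and 12.6%. Against both controls 7 rose and 2 fell, 22.6% and 6.45% of the list beside 9.37% and 8.61% of all genes. The list's median log2 fold change was 0.07 in each comparison, beside -0.03 over all genes. Between the controls 7 were higher with the negative control and 1 was lower, 22.6% and 3.23% of the list beside 7% and 8.28% of all genes. The list was chosen with earlier results of these data known, so its shares are no test of the pathway.

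Among the released factors and the apoptosome, 6 genes were measured, of which 3 rose and 0 fell against lipid alone, and 3 rose and 1 fell against the negative control; of all genes 14.5% rose and 13.1% fell in the former and 15.4% and 12.6% in the latter. APAF1, the scaffold of the apoptosome, read 4.46, 4.52 and 4.504 with lipid alone, 5.29, 5.40 and 5.54 with the negative control and 5.76, 5.82 and 5.93 with miR-520f. The 3 groups did not overlap, and much of the rise over lipid alone was present with the negative control mimic: APAF1 was 0.91 higher there (limma adjusted p = 5.68e-05), and miR-520f was 1.34 above lipid alone and 0.43 above the negative control. CASP9, the caspase that APAF1 activates, rose by 0.57 and 0.53 on the log2 scale and differed by 0.03 between the controls. DIABLO (SMAC), a mitochondrial antagonist of XIAP, rose by 0.55 and 0.37. Its call against the negative control (limma adjusted p = 0.0229) was lost under 6 of 19 alternatives, 4 of them the omission of replicate 1 or 2 of the negative control or of replicate 2 or 3 of miR-520f (0.30 to 0.37, adjusted p 0.0613 to 0.0963). Cytochrome c, CYCS, named after its values were seen, was 0.61 lower with miR-520f than with the negative control (limma adjusted p = 0.00044), in which it was 0.53 above lipid alone (limma adjusted p = 0.00296), and it differed from lipid alone by -0.08. AIFM1 (0.27 and 0.20) and HTRA2 (-0.17 and -0.11) were not called.

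XIAP, which binds and blocks caspases, read 6.61, 6.84 and 6.54 with lipid alone, 6.18, 6.51 and 6.63 with the negative control and 7.28, 7.16 and 7.36 with miR-520f. All miR-520f arrays were above all control arrays, and XIAP rose by 0.60 against lipid alone (SE 0.12, limma adjusted p = 0.00312) and by 0.82 against the negative control (SE 0.12, limma adjusted p = 0.000375). Replicate 1 of the negative control was the lowest array for XIAP. On leaving out single arrays the change against the negative control ran from 0.69 to 0.92 and stayed called. The other measured inhibitor, BIRC2, was not called (-0.03 and -0.08). An inhibitor of caspases thus rose on the same arrays as APAF1, CASP9 and DIABLO, genes that act toward caspase activation. On these arrays CASP8 fell against both controls (-0.77 and -0.98) and CYCS fell against the negative control (-0.61). Between the controls APAF1 was 0.91 higher with the negative control, and XIAP was not called (-0.22).

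CASP8, the death receptor caspase that activates BID, read 6.72, 6.73 and 6.60 with lipid alone, 6.79, 6.95 and 6.94 with the negative control and 5.87, 5.97 and 5.89 with miR-520f. It fell by 0.77 on the log2 scale against lipid alone and by 0.98 against the negative control (limma adjusted p = 2.14e-05 and 3.77e-06), while BID was not called. DDIT3 (CHOP), a stress transcription factor known to raise BCL2L11 and BBC3 and to repress BCL2, rose by 1.09 and 0.64. BCL2L11, BBC3 and BCL2 were not called with miR-520f against either control. BBC3 and BCL2 were below the array's median on all 9 arrays, and the limit given above for dim probe sets applies. For BCL2L11 all miR-520f arrays lay above those of lipid alone (0.17, limma adjusted p = 0.156). A response of these genes to DDIT3 was not tested. DDIT3 was also 0.45 higher with the negative control than with lipid alone (limma adjusted p = 0.0492). E2F1 (0.14 and -0.0087), ATF4 (-0.22 and -0.20) and TP73 (-0.14 and -0.17) were not called.

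Of 4 measured genes for turnover of family proteins, 2 rose and 0 fell against each control (all genes: 14.5% higher and 13.1% lower against lipid alone, 15.4% and 12.6% against the negative control). BTRC (beta-TrCP), a substrate receptor of ubiquitin ligases that act on BIM, rose by 1.24 and 0.95 on the log2 scale. FBXW7, a receptor that marks MCL1 for degradation, rose by 0.95 and 0.64. Both also stood higher in the negative control than in lipid alone (0.29 and 0.31; limma adjusted p = 0.043 and 0.0122). MARCHF5 (-0.32 and -0.28) and TRIM17 (-0.05 and -0.18) were not called. TRIM17 was below the array's median on every array, and the limit given for BCL2 applies to it.

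Of 6 measured BCL2-related genes, BNIP3L (NIX), a receptor for the removal of mitochondria, fell by 0.63 and 0.86 on the log2 scale (limma adjusted p = 0.000151 and 1.65e-05), with all miR-520f arrays below all control arrays. BNIP2 rose against lipid alone by 0.32 and was not called against the negative control (0.16). BNIP1 (0.19 and -0.15), BNIP3 (0.33 and 0.07), BCL2L13 (-0.09 and 0.23) and BCL2L14 (-0.08 and -0.05) were called against neither. For negative control minus lipid alone, BNIP1 (0.34, limma adjusted p = 0.0182) and BCL2L13 (-0.33, limma adjusted p = 0.0304) were called. The 2 measured further guardians, BCL2L2 (0.18 and 0.25) and BCL2L10 (0.07 and -0.0052), were not called. The channels VDAC1 (-0.11 and 0.07), VDAC2 (0.05 and 0.40) and VDAC3 (0.31 and 0.05) were not called either. BCL2L10, BCL2L14 and BNIP1 were below the array's median on every array, and the limit given for BCL2 applies to them. Of the 3 further BH3-only genes, BMF, named after its values were seen, read 4.15, 4.38 and 4.38 with lipid alone, 5.15, 5.35 and 5.21 with the negative control and 5.65, 5.22 and 5.51 with miR-520f. Both mimic groups lay above lipid alone, by 0.94 with the negative control (limma adjusted p = 0.000364) and 1.16 with miR-520f (limma adjusted p = 2.47e-05), and they overlapped each other (0.22, limma adjusted p = 0.201). BAD (-0.25 and 0.16) and HRK (0.04 and -0.17) were not called with miR-520f. Between the controls 8 of the 31 genes were called, beside 15.3% of all genes. That count was 3 without replicate 2 of lipid alone and 5 without replicate 2 of the negative control or replicate 1 of miR-520f.

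**Figure D4:**
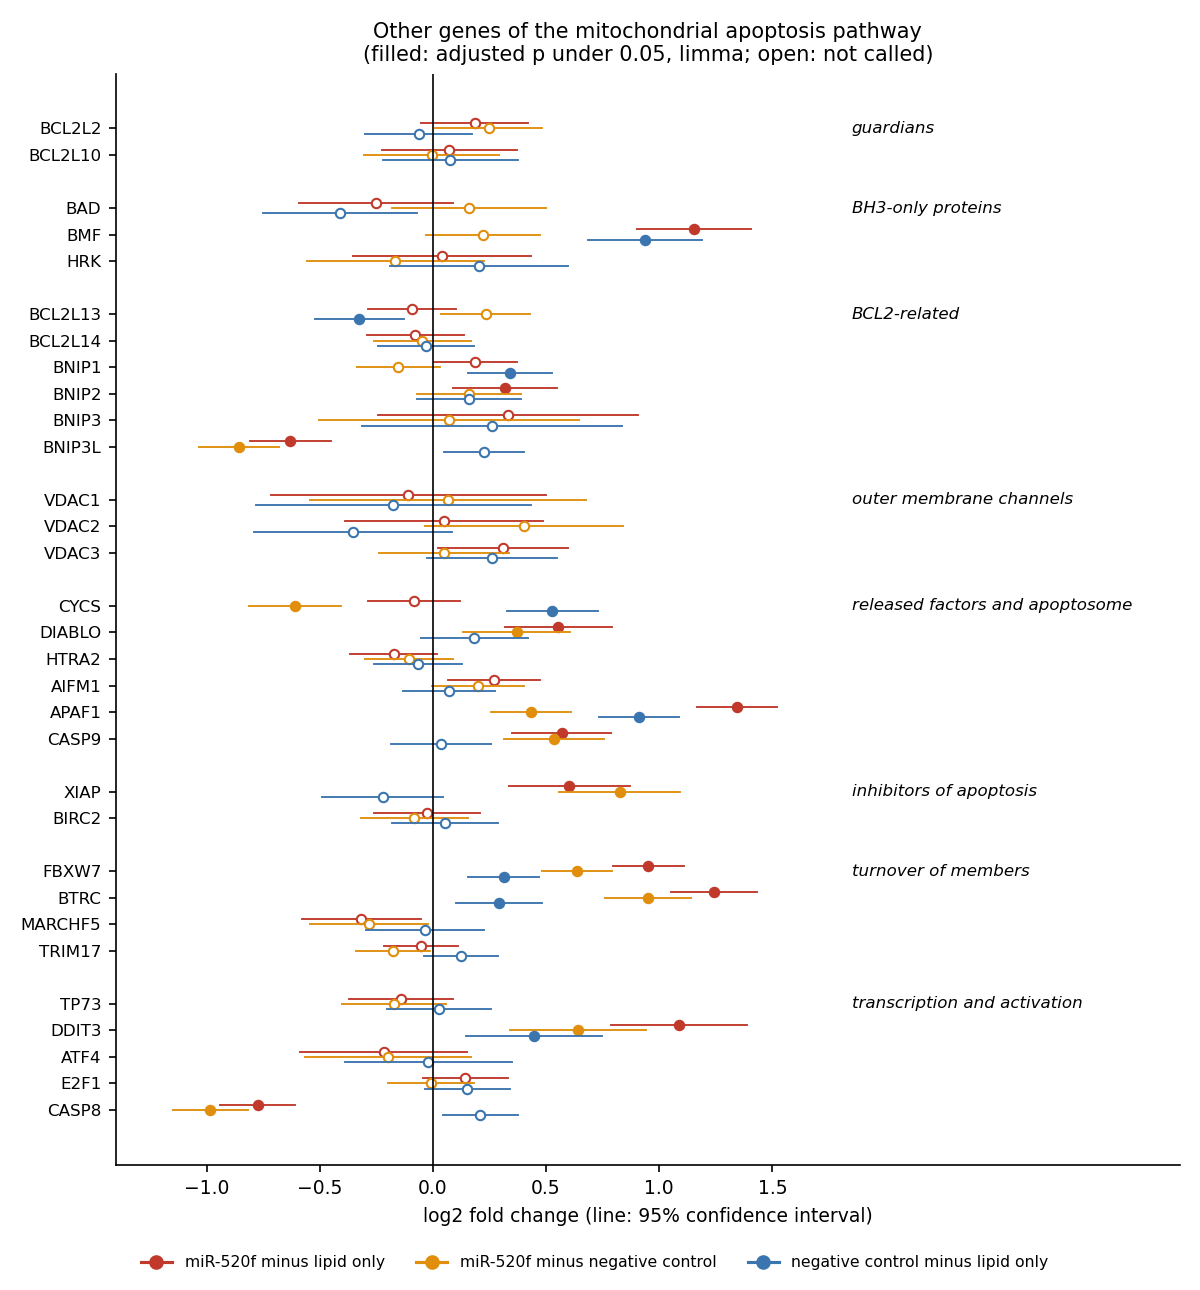
Log2 fold changes (points) with 95% confidence intervals (lines) of the 31 measured pathway genes outside the family, grouped by role, for the same 3 comparisons; filled points passed an adjusted p under 0.05 in limma. CASP8 and BNIP3L lie on the left for both miR-520f comparisons, BTRC, FBXW7, APAF1, XIAP, CASP9 and DDIT3 on the right, and no VDAC gene has a filled point.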

How the data were processed

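The authors deposited log2 values of 22011 probe sets on 9 Affymetrix arrays (biotin-labelled cDNA, per the labels' protocols). Partek 6.6, RMA and hg18 are named in the submitters' processing notes, with settings and any probe set filter not given in the sources used here. Platform annotation gave 1 symbol for 14432 probe sets, several for 2408 and none here for 5171. Entrez identifiers matched 14404 of the first to a RefSeq table (GRCh38.p14). The probe set of highest mean was kept per gene (14232 genes). None of the 9 measured family genes had a choice of probe sets. No coordinates of genes are given, since the builds differ.

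Group means were compared with limma 3.58.1 (R 4.3.3): all 9 arrays, 6 residual degrees of freedom, empirical Bayes moderation and Benjamini-Hochberg adjustment over all 14232 genes. The script was tested on simulated data. The family, the wider list and their tests were chosen with earlier results of these data known. The naming rule took all family genes, wider-list genes changed against both controls, and the 3 nearest genes of the 3 family genes with the largest changes of equal sign. The other measured wider-list genes fall outside it and were added with their values, after these were seen, so that the list is complete. The number of arrays limits the precision. In all, 19 alternatives were run.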

Additional observations from a re-analysis of the deposited data

How the results depend on the processing

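The 19 alternatives changed the scaling, the filter, the probe sets, the moderation, the arrays fitted, the replicate term or the threshold, or left out 1 of the 9 arrays. BAK1 was called against both controls in all of them (log2 fold changes 1.31 to 1.44 and 1.28 to 1.49), and BCL2L1 against lipid alone (-1.001 to -0.874). With unmoderated variances 1 family gene in place of 2 was called against both controls. Between the controls, 0 family genes in place of 1 were called without the dimmest 25% of genes, with trended robust moderation, with unmoderated variances, with the 6 arrays of the contrast and at an adjusted p under 0.01. The wider list then gave 5 genes in place of 8 with median centring, 4 with unmoderated variances and 3 at an adjusted p under 0.01. On leaving out single arrays the family counts ran from 2 to 3 against lipid alone, 3 to 4 against the negative control, 2 to 3 against both and 0 to 1 between the controls, and the wider list from 10 to 14, 9 to 12 and 3 to 8. For these changes the cause was not tested.

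Of 45 log2 fold changes examined under each alternative, the sign turned in 13 cases, 0 of them called. After further quantile normalization these were BAK1 between the controls (0.00918), BCL2 against the negative control (0.0209) and BIK against lipid alone (0.0476). With median centring, which moved the miR-520f comparisons by 0.0657 and 0.0413, they were BCL2 (0.00282) and BIK (0.0514) in the same comparisons. On leaving out single arrays BAK1 between the controls ran from -0.111 to 0.102, BIK from -0.104 to 0.0405 against lipid alone, from -0.198 to 0.0101 against the negative control and from -0.0243 to 0.184 between the controls, and BBC3 against lipid alone from -0.0441 to 0.149.

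The groups share replicate numbers, and deviations from the group means correlated above 0.1 in 4 of 9 same-numbered pairs (-0.0262 to 0.205). Pairs of different numbers ran from -0.437 to 0.33. These values do not settle whether the numbers pair the arrays, which was not tested further. With the replicate number as a block, 2, 3 and 1 family genes were called against lipid alone, against the negative control and between the controls. In the same order the wider list gave 13, 10 and 8 genes, in place of 11, 10 and 8 without the block. Of the 45 calls examined 0 changed, but these cover only the family genes and the wider-list genes called against both controls.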
